A study of Mus musculus with 17 samples.

Results

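Cholesterol synthesis, its regulation and the uptake, transport and export of sterols were followed through 28 genes, out of 31438 genes in the deposited count tables. The 28 were chosen because genes of the synthesis branch had lower RNA with Atr deletion in mice lacking Bax and Bak, so their values in that comparison, and the number of them past a threshold in it, describe the choice and support nothing. They comprised 18 synthesis genes, 5 regulators and 5 genes of uptake, transport and export. All 28 passed the filter on low counts in both comparisons, and the lowest count of any of them in a deep library was 521. Other enzymes and receptors of the pathway are not analysed here.

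Cells make cholesterol from acetyl-CoA through mevalonate, isoprenoid diphosphates, squalene and lanosterol. When sterols in the endoplasmic reticulum are low, SCAP escorts the membrane-bound SREBP transcription factors to the Golgi, where they are cleaved and released to switch on the synthesis genes, and INSIG proteins hold SCAP back when sterols are plentiful. When oxidised sterols accumulate, LXR receptors raise exporters such as ABCA1. The brain makes its own cholesterol, and in the cerebellum the dividing granule neuron progenitors also need sterols to respond to Sonic hedgehog.

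RNA was sequenced from whole cerebella of C57BL/6 mice at postnatal day 3, after the meninges had been taken off. All 4 groups carried Math1-Cre, which is expressed in granule neuron progenitors, so the floxed alleles stay intact in cells outside that lineage. In the Bax/Bak background, 4 controls carried Bax-loxP/loxP and Bak--/-, and 5 samples carried Atr-loxP/loxP in addition, so both groups lacked Bak in every cell and Bax in the Cre lineage. In the p53 background, 3 controls carried p53-loxP/loxP, and 5 samples carried Atr-loxP/loxP in addition. Groups are called Atr Bax/Bak, Bax/Bak control, Atr p53 and p53 control below.

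Totals were 42987953 to 100659645 counts in 16 deep libraries, and 1 Atr p53 library (replicate 3) with 13601 counts was left out, leaving 4 in that group. Levels are CPM (read counts relative to the library's scaled total) after TMM scaling of the 16 libraries together. Bak1 was at 0.237 to 0.607 CPM in the Bax/Bak background and at 32.6 to 41.6 CPM in the p53 background. Trp53 was at 62.2 to 76.8 CPM and 29.3 to 45.5 CPM, and Bax at 24.7 to 36.7 CPM and 54.2 to 73.7 CPM, in the same order. Atr was at 35.8 to 43.5 CPM in Atr Bax/Bak and 38.4 to 48.0 CPM in its controls, and at 33.7 to 40.2 CPM in Atr p53 and 36.3 to 38.2 CPM in its controls. The Atr ranges overlapped in both backgrounds, so the gene-level count, which includes reads outside the deleted part and from undeleted cells, did not check the Atr labels. Within Atr p53, replicate 2 stood apart, with 1497 CPM summed over 12 markers of dividing cells against 2019 to 2181 CPM in the other 3 libraries. Nothing in the labels says that samples came from separate animals, so spread between samples may be partly technical. In whole tissue, fewer cells of a type and less RNA per cell cannot be told apart.

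The promoters of the synthesis genes shared a sequence feature that had played no part in their choice. RefSeq promoter windows on GRCm38.p6, from 250 bases before to 50 after the start site, were available for 23 of the 28 genes, 15 of them synthesis genes. These 23 genes had 31 listed promoters, and a gene was counted if any of its promoters held the motif. The CCAAT box, bound by the factor NF-Y that works beside SREBP at sterol promoters, was searched on both strands and was present in 14 of the 15 synthesis genes (93.3%). It was present in 41.1% of 27025 genes in the table and in 42.4% of the 12659 of them that were tested in the Bax/Bak background. With the window shortened to the 150 bases before the start, the box was in 14 of 15 synthesis genes, against 27.7% of all genes in the table and 30.9% of the tested protein-coding ones. The GC box GGGCGG, bound by Sp1, was in 14 of 15 synthesis genes against 38.2% of all genes in the table and 63.6% of those tested. The sterol regulatory element core TCACNCCAC was in 1 of 15 synthesis genes, Hmgcs1, against 1.4% of all genes in the table. Motifs were counted separately even where they could share bases, and a match is a description of the letters only.

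7 of these promoters are shown, for 5 genes that were lower and 2 that were higher (Abca1 and Mylip). Only windows free of annotated exons were considered. That of Srebf1, which was higher, held neither motif and is not printed. Other listed promoters of Srebf1 did hold a CCAAT box. Each printed window is the 150 bases before the RefSeq start site, read 5′ to 3′ on the gene's strand. Capitals mark CCAAT on either strand and the sterol regulatory element core.
Hmgcs1, chr13:119690201-119690350, plus strand: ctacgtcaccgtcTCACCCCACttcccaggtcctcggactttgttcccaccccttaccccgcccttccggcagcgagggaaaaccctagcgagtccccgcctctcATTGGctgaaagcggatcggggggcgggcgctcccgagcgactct
Mvk, chr5:114444119-114444268, plus strand: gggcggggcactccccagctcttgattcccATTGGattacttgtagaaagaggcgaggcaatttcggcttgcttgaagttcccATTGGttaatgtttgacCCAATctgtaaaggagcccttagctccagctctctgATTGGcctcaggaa
Mvd, chr8:122443423-122443572, minus strand: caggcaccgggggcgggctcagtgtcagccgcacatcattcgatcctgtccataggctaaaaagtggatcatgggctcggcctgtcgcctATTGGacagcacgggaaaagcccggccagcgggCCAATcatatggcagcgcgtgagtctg
Ebp, chrX:8193513-8193662, minus strand: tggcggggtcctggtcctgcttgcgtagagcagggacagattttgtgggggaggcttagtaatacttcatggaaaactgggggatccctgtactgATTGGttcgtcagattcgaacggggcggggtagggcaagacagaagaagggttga
Sc5d, chr9:42264301-42264450, minus strand: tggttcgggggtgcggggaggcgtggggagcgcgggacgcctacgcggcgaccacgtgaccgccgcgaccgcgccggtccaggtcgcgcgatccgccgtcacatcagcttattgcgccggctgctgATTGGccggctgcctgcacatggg
Abca1, chr4:53159896-53160045, minus strand: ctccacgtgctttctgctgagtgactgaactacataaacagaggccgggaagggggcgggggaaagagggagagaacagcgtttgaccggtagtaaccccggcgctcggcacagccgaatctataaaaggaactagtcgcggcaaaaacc
Mylip, chr13:45389592-45389741, plus strand: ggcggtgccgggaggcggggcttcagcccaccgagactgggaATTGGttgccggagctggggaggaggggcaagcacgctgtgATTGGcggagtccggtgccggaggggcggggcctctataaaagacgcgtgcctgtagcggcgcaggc
In the Hmgcs1 window the sterol regulatory element core lies 137 bases before the start, with a reversed CCAAT box nearer to the start. The Mvk window holds 4 CCAAT boxes, the Mvd window 2, and the Ebp and Sc5d windows 1 each. The Abca1 window holds neither motif and the Mylip window 2 CCAAT boxes. In the longer window the box was also in 4 of 5 regulators and in 2 of 3 genes of uptake, transport and export. It did not separate the genes by their RNA: Lss, Tm7sf2 and Dhcr7, which were not lower, each had it, and Acat2, which was lower, did not. For Dhcr7 the box lay only in a listed promoter inside the gene, not in the one at the gene start.

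**Figure D1:**
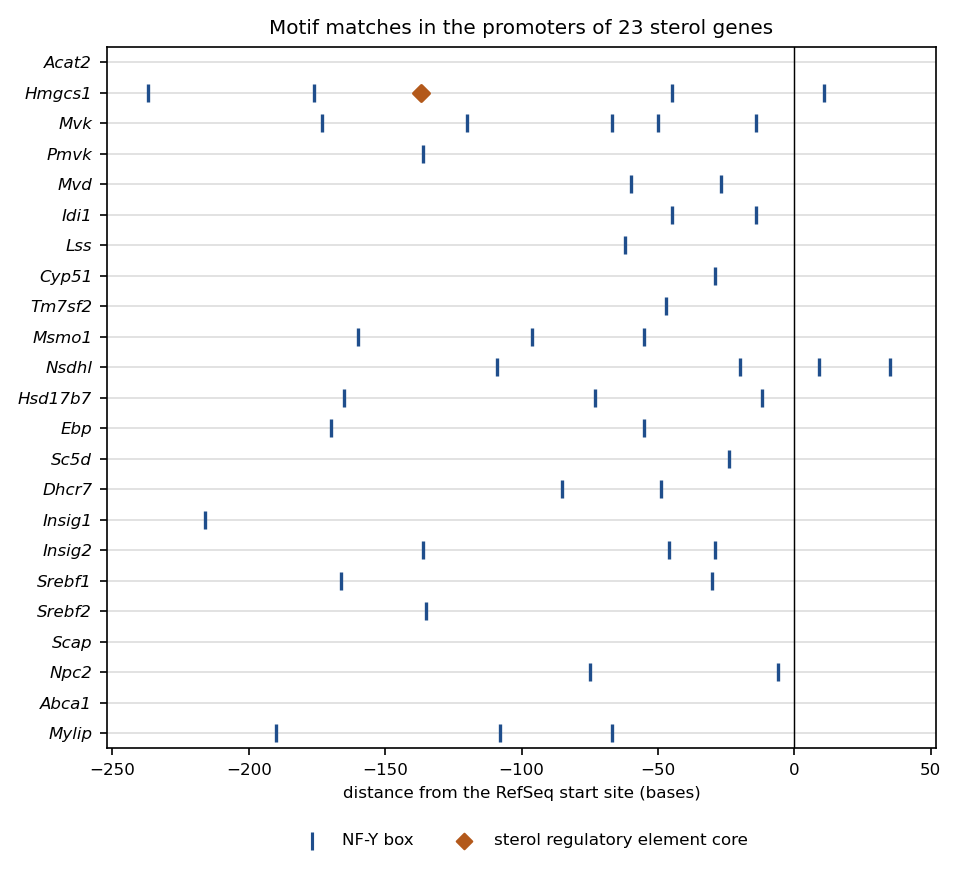
Positions of motif matches in the RefSeq promoters of 23 sterol genes (rows), as distance in bases from the start site, all listed promoters of a gene combined. Bars mark CCAAT boxes on either strand and the diamond the single sterol regulatory element core, in Hmgcs1, at -137.

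In the Bax/Bak background, 15 of the 18 synthesis genes had lower RNA with Atr deletion, from the first step of the pathway to near the last. These 15 were below an adjusted p of 0.05 in edgeR's quasi-likelihood test and none of the 18 was higher. In the same test 44.5% of all 17405 genes passed, made up of 22% of all genes as lower and 22.5% as higher. In the same 15 genes every Atr Bax/Bak library was below every control, as was so for 21.1% of all genes. The genes had been chosen on this comparison, so these counts describe the choice. The median log2 fold change was -0.44 over the 18 synthesis genes, with a range of -0.83 to 0.19, beside 0.04 over all genes tested.

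Idi1 (chr13:8885501-8892451, plus strand), which interconverts the pathway's 5-carbon isoprenoid units, had the lowest ratio. It was at 180.1, 194.5, 188 and 181 CPM in the Bax/Bak controls and at 101, 105, 98.9, 108 and 102 CPM with Atr deletion. The 5 Atr Bax/Bak libraries lay close together and far below all 4 controls. The mean was 186 ± 6.76 CPM (SD, n = 4) in controls and 103 ± 3.58 CPM (SD, n = 5) with Atr deletion, 0.561 times the control level, with a log2 fold change of -0.83 ± 0.04 (SE).

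Fdps (chr3:89093588-89101959, minus strand), which makes farnesyl diphosphate, was at 84.3, 87.2, 90.7 and 93.5 CPM in controls. With Atr deletion it was at 54.9, 58.9, 57.7, 56.2 and 64.7 CPM. The groups did not overlap, and the log2 fold change was -0.59 ± 0.05. Fdft1 (chr14:63145150-63179578, minus strand) joins 2 farnesyl diphosphates into squalene. It was at 117, 127.5, 133 and 130.3 CPM in controls and at 84.3, 81.6, 85.0, 85.6 and 83.6 CPM with Atr deletion, a log2 fold change of -0.58 ± 0.04 with no overlap. Fdft1 overlaps Ctsb on the other strand, and 47.5% of its 31-base words occur in other genes, most often in Ctsb. For Fdps the share was 27.8%, most often in the gene model Gm43738, so the division of reads bears on both counts. Idi1 shares 18.8% with other genes, most often Gm13502. Hmgcs1, Mvd, Idi1, Lss, Cyp51, Insig2, Srebf1, Scap and Npc1 also lie opposite annotated genes on the other strand, and their counts are uncertain to that extent.

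Hsd17b7 (chr1:169949535-169969241, minus strand), a 3-ketosteroid reductase of the demethylation steps after lanosterol, was among the less abundant enzymes. It was at 30.8, 33.6, 41.8 and 34.1 CPM in controls, replicate 3 being the highest, and at 21.6, 23.8, 20.4, 26.6 and 23.4 CPM with Atr deletion. The log2 fold change was -0.58 ± 0.09 and the groups did not overlap. Acat2 (chr17:12942890-12960747, minus strand), which condenses acetyl-CoA at the entry to the pathway, was at 146, 159, 149 and 157 CPM in controls. With Atr deletion it was at 100.3, 101, 105, 107.5 and 105 CPM, all below the controls, a log2 fold change of -0.54 ± 0.04. Acat2 shares 44.2% of its 31-base words with Acat3. Mvd (chr8:122433601-122443422, minus strand), the mevalonate diphosphate decarboxylase, was at 46.1 and 48.7 CPM in control replicates 1 and 2 and at 65.7 and 61.9 CPM in 3 and 4. It was at 36.7, 38.6, 37.45, 39.4 and 38.6 CPM with Atr deletion, below all controls, with a log2 fold change of -0.53 ± 0.10. Control replicates 1 and 2 belong to one number series in the sample titles and 3 and 4 to another, and the Mvd value was -0.30 against the first pair and -0.77 against the second.

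The remaining lower enzymes covered the rest of the route. Hmgcs1, which makes HMG-CoA, was the most abundant member per length, at 478 ± 24.0 TPM (level per length, SD) in controls and 410 ± 24.4 TPM with Atr deletion, and its log2 fold change was -0.25 ± 0.05. Sqle, which oxidises squalene, was at -0.50 ± 0.05, Msmo1, the sterol methyl oxidase, at -0.48 ± 0.05, and Ebp, the sterol isomerase, at -0.44 ± 0.10 (-0.29 against control replicates 1 and 2 alone). Cyp51, the lanosterol demethylase, was at -0.43 ± 0.05 and Sc5d, the sterol desaturase, at -0.42 ± 0.07. Nsdhl, the decarboxylating dehydrogenase, was at -0.28 ± 0.05 and the kinase Mvk at -0.21 ± 0.06. In Msmo1 a shorter processed transcript held 6.0% of the counts in controls and 14.1% with Atr deletion. The main coding transcript of Msmo1 alone had a log2 ratio of -0.71, beside -0.50 for the gene, both taken from group mean CPM. On that scale the main Mvk transcript was at -0.11 beside -0.23 for the gene, the main Pmvk transcript at -0.26 beside -0.16, and the main Tm7sf2 transcript at 0.02 beside 0.17.

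The smallest differences were in Dhcr7, Lss and Pmvk. Dhcr7, which reduces 7-dehydrocholesterol at the end of the pathway, was at 78.75, 85.85, 75.6 and 83.2 CPM in controls and 72.25, 79.5, 80.5, 77.5 and 84.1 CPM with Atr deletion. The ranges overlapped, and the log2 fold change was -0.02 with a 95% interval of -0.14 to 0.10. Lss, which closes the ring to lanosterol, was at 70.6, 71.8, 76.2 and 68.0 CPM and at 75.5, 74.3, 65.8, 69.2 and 78.9 CPM, overlapping, a log2 fold change of 0.04 (interval -0.08 to 0.16). A retained-intron transcript held 47.9% of the Lss counts in controls and 45.7% with Atr deletion. Pmvk, phosphomevalonate kinase, was at 43.1, 42.6, 45.5 and 45.5 CPM and at 38.9, 39.4, 36.5, 40.95 and 42.2 CPM. Its groups came close without overlapping, and the log2 fold change of -0.14 ± 0.05 lost its call in several alternative fits. Tm7sf2, a sterol reductase, was at 0.19 ± 0.10 with overlapping groups. Of its 31-base words 13.8% are shared with other genes, most often Vps51.

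**Figure D2:**
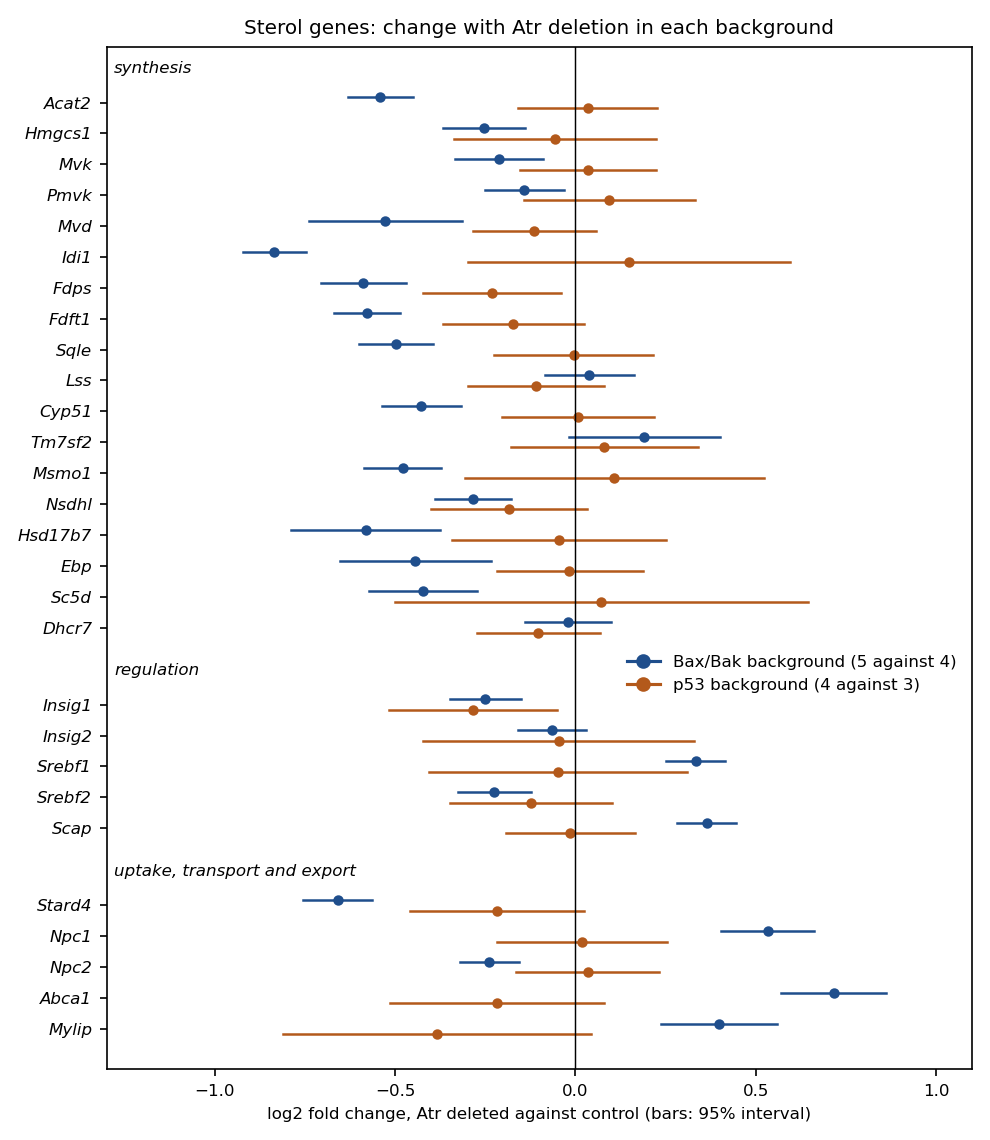
Log2 fold change of the 28 sterol genes with Atr deletion, in the Bax/Bak background (blue, 5 against 4) and the p53 background (orange, 4 against 3), with 95% intervals, grouped by role. The synthesis genes lie mostly left of 0 in blue, with Idi1 at -0.83, and around 0 in orange, where every gene but Fdps and Insig1 has an interval that includes 0.

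The regulators divided. Insig1, an SREBP target whose product restrains SCAP, was at 119, 112, 126 and 128.5 CPM in controls and at 98.3, 101, 102, 104 and 99.2 CPM with Atr deletion. All 5 were below the controls, and the log2 fold change was -0.25 ± 0.05. Srebf2, which encodes the SREBP that mainly drives synthesis, was at 237.5, 257, 259.8 and 266 CPM and at 203, 216, 224.5, 215 and 220.3 CPM, without overlap, a log2 fold change of -0.23 ± 0.05. Srebf1, the SREBP gene that mainly serves fatty acid synthesis and is itself an LXR target, was higher. It was at 110.3, 109.9, 109.6 and 115 CPM in controls and at 138, 142, 139, 132 and 142 CPM with Atr deletion, a log2 fold change of 0.33 ± 0.04. Scap was at 81.1, 81.8, 85.6 and 85.9 CPM and at 104, 109, 107, 103 and 109 CPM, all above the controls, a log2 fold change of 0.36 ± 0.04. Insig2 was at 35.7, 34.6, 33.7 and 34.05 CPM and at 32.1, 32.6, 31.2, 33.95 and 33.05 CPM, with overlapping groups and a log2 fold change of -0.07 ± 0.04. All Atr libraries lay above the controls for 17.1% of all genes tested in this background.

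Uptake, transport and export did not follow synthesis: 3 of the 5 genes were higher and 2 lower. Abca1 (chr4:53030787-53159895, minus strand), the exporter that loads cholesterol onto apolipoproteins, was at 117, 112, 96.2 and 97.5 CPM in controls. With Atr deletion it was at 162, 184, 165, 173 and 174 CPM, all far above the controls. Its log2 fold change of 0.72 ± 0.07, 1.64 times the control level, was the highest of the 28 genes. Npc1, the membrane protein that passes cholesterol out of lysosomes, was at 51.9, 53.3, 60.7 and 53.9 CPM and at 78.3, 82.4, 77.75, 71.5 and 83.3 CPM. The groups did not overlap, and the log2 fold change was 0.53 ± 0.06. Mylip, an LXR target that marks lipoprotein receptors for degradation, was the least abundant in CPM. It was at 12.3, 12.1, 10.5 and 11.3 CPM and at 14.75, 15.6, 14.2, 16.3 and 14.2 CPM, without overlap, a log2 fold change of 0.40 ± 0.07.

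Stard4 and Npc2 were on the other side. Stard4, an SREBP target that carries sterol between membranes, was at 101, 111, 110.3 and 109 CPM in controls and at 66.4, 65.8, 69.7, 71.1 and 64.2 CPM with Atr deletion. It was lower in all 5, by -0.66 ± 0.04 on the log2 scale, the second lowest of the 28 after Idi1. Npc2, the soluble lysosomal partner of Npc1, was at 109, 106, 104.5 and 109.6 CPM and at 88.65, 89.3, 94.0, 88.0 and 89.0 CPM. All 5 were below the controls, with a log2 fold change of -0.24 ± 0.04. The median over the 5 genes, which were split in direction, was 0.40, the value of Mylip. Over the synthesis genes the median was -0.44. Summed per length, synthesis was at 1873 ± 48.6 TPM (SD, n = 4) in controls and 1476 ± 62.5 TPM (SD, n = 5) with Atr deletion. Uptake, transport and export summed to 180.3 ± 1.03 TPM and 183 ± 3.77 TPM. The sums were not as close in CPM, at 381.6 to 394.0 CPM in controls and 409.8 to 437.2 CPM with Atr deletion.

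**Figure D3:**
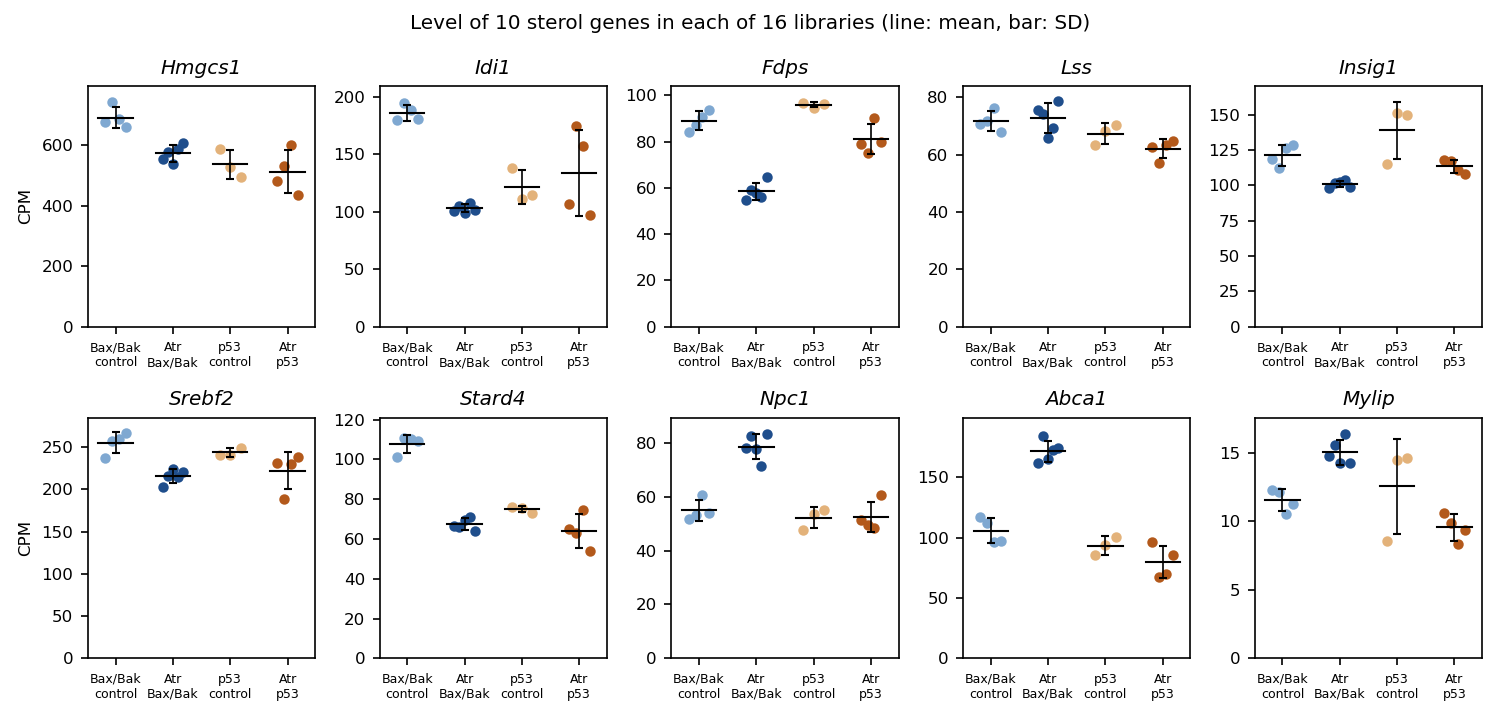
Levels in CPM of 10 sterol genes in each of the 16 deep libraries by group, with mean (line) and SD (bar). Idi1, Fdps, Hmgcs1 and Stard4 drop from Bax/Bak controls to Atr Bax/Bak while Npc1, Abca1 and Mylip climb. Insig1 and Mylip split the 3 p53 controls, with replicate 1 low, at 115.5 and 8.57 CPM.

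Markers of several cell types moved in the same libraries. Over all genes tested in this background, 22% were called lower and 22.5% higher. Summed over 12 markers, dividing cells were at 2024 to 2211 CPM in Bax/Bak controls and at 1024 to 1267 CPM in Atr Bax/Bak, with 12 of 12 lower. Of 10 granule progenitor markers 9 were lower and 1 was higher, and their sum was 2909 to 3476 CPM and 2064 to 2363 CPM. Of 10 granule neuron markers 6 were lower and 4 were not called (3835 to 4547 CPM and 2759 to 3116 CPM). Of 12 markers of astrocytes and Bergmann glia 10 were higher and 1 was lower (4423 to 4796 CPM and 5748 to 7227 CPM). Markers of the oligodendrocyte lineage were higher in 8 of 11 and lower in 1 (816 to 1417 CPM and 1396 to 2996 CPM), and microglial markers were higher in 8 of 10 (104 to 144 CPM and 155 to 196 CPM). Purkinje markers were higher in 5 of 6 (1977 to 2301 CPM and 2400 to 3425 CPM) and interneuron markers in 4 of 4 (298 to 374 CPM and 479 to 612 CPM). Endothelial and pericyte markers were higher in 3 of 8, with overlapping sums (475 to 619 CPM and 592 to 669 CPM) and a median log2 fold change of 0.10. None of the markers of meninges (6), choroid plexus (5) or erythroid cells (5) was called. Choroid plexus markers varied most between libraries of a group, at 62 to 3722 CPM in controls and 29 to 2721 CPM with Atr deletion. No marker was at 0 in any deep library. The part of these shifts in the sterol gene differences was not tested.

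The p53 background was not used to choose the genes, and there the same deletion could be tested. None of the 28 genes passed an adjusted p of 0.05 in edgeR's quasi-likelihood test, DESeq2 or limma-voom, and 2 of them were at an unadjusted p under 0.05. Over all 17348 genes tested, 8 passed in edgeR, or 0.0461%, and 1142 were at an unadjusted p under 0.05. Every Atr p53 library was below every control in 5 of the 28 (Mvd, Fdps, Nsdhl, Dhcr7 and Srebf2), against 4.62% of all genes. None of the 28 had every library above the controls, against 3.59%. The median log2 fold change was -0.01 over the synthesis genes, -0.05 over the regulators and -0.22 over uptake, transport and export, beside 0.01 over all genes. In the sample titles, p53 control replicate 1 is in the same number series as all Atr p53 samples and replicates 2 and 3 are in another. The labels do not say what a series is. Against replicate 1 alone the medians were -0.14 over the synthesis genes and 0.002 over uptake, transport and export.

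Fdps and Insig1 had the smallest p-values. Fdps was at 96.6, 94.6 and 96.2 CPM in p53 controls and at 79.0, 75.0, 90.35 and 79.8 CPM with Atr deletion. Each Atr p53 library was below each control, and the log2 fold change was -0.23 ± 0.09. In edgeR the unadjusted p was 0.0231 and the adjusted p was 0.695. Insig1 was at 115.5, 152 and 149.6 CPM in controls and at 118, 117, 111 and 108 CPM with Atr deletion. Control replicate 1 lay among the Atr p53 libraries, so the groups overlapped. The log2 fold change was -0.28 ± 0.10, and -0.02 against control replicate 1, of the same number series, alone. In edgeR the unadjusted p was 0.0223 and the adjusted p was 0.687.

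Idi1, the lowest ratio in the other background, scattered widely here. It was at 138, 111.5 and 114 CPM in controls and at 107, 174, 157 and 97.3 CPM in Atr p53, replicates 2 and 4 being above all controls and replicates 1 and 5 below. Its log2 fold change was 0.15 ± 0.20 (95% interval -0.30 to 0.60, edgeR adjusted p = 0.892), and it was -0.001 without replicate 2 and -0.05 against control replicate 1 alone. Msmo1 and Sc5d had the same 2 libraries high. Msmo1 was at 72.75, 64.8 and 58.1 CPM in controls and 58.75, 94.65, 73.7 and 52.6 CPM with Atr deletion. Sc5d was at 37.3, 56.6 and 43.3 CPM and at 41.4, 62.2, 58.9 and 28.8 CPM. A short Sc5d transcript held 9.0% to 25.9% of the counts in p53 controls and 0.0% to 21.6% in Atr p53, against at most 4.6% in the Bax/Bak background. The main Sc5d transcript alone had a log2 ratio of 0.29 in the p53 background, beside 0.07 for the gene, both taken from group mean CPM.

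The other synthesis genes given by library above had log2 fold changes from -0.17 to 0.09 here, some of them without overlap. Hsd17b7 was at 25.9, 21.35 and 20.7 CPM in p53 controls and 20.3, 23.8, 25.0 and 18.2 CPM in Atr p53, overlapping, a log2 fold change of -0.05 ± 0.13. Acat2 was at 153, 143 and 146 CPM and at 159.6, 137, 144 and 160.2 CPM, also overlapping, at 0.03 ± 0.09. Fdft1 was at 120.4, 116 and 118 CPM and at 104, 97.5, 117 and 98.2 CPM, where only replicate 4 reached into the control range, at -0.17 ± 0.09. Mvd was at 44.7, 43.3 and 42.9 CPM and at 40.3, 38.35, 40.4 and 41.2 CPM, with no overlap and a log2 fold change of -0.11 ± 0.08. Dhcr7 was at 83.4, 79.0 and 83.2 CPM and at 78.35, 70.9, 77.3 and 76.4 CPM, without overlap, at -0.10 ± 0.08. Lss and Pmvk overlapped with their controls. Their log2 fold changes were -0.11 ± 0.08 and 0.09 ± 0.11. Nsdhl, given above by fold change only, was also below all its controls, at -0.18 ± 0.10.

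Among regulators, Srebf2 was at 240.7, 240.7 and 249.4 CPM in p53 controls and at 231, 189, 230.3 and 238 CPM in Atr p53. The groups did not overlap, replicate 2 was far the lowest, and the log2 fold change was -0.12 ± 0.10. Srebf1 was at 99.6, 123 and 129 CPM and at 138, 87.3, 102 and 123 CPM, and Scap at 89.3, 94.0 and 93.6 CPM and at 95.8, 83.3, 89.7 and 94.2 CPM. Both overlapped with their controls, with log2 fold changes of -0.05 ± 0.16 and -0.01 ± 0.08. Insig2 was at 27.95, 26.4 and 26.4 CPM and at 20.7, 34.6, 27.01 and 21.3 CPM, spreading to both sides of the controls, at -0.05 ± 0.17.

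Abca1 and Mylip, higher in the Bax/Bak background, had negative estimates in the p53 background. Abca1 was at 85.6, 94.0 and 101 CPM in p53 controls and at 96.3, 67.3, 70.2 and 85.4 CPM in Atr p53, overlapping, at -0.22 ± 0.13. Against control replicate 1 alone the Abca1 value was -0.10. Mylip was at 8.57, 14.4 and 14.6 CPM in controls and 10.6, 9.89, 8.32 and 9.38 CPM in Atr p53, at -0.38 ± 0.19. Mylip depended on the control: its log2 fold change was 0.16 against replicate 1, the control of the same number series, and -0.60 against the other two. Npc1 was at 47.8, 53.6 and 55.1 CPM and at 51.5, 49.3, 48.5 and 60.7 CPM, at 0.02 ± 0.10. Npc2 was at 122, 120.1 and 118 CPM and at 118, 141, 116 and 114.5 CPM, at 0.03 ± 0.09, and replicate 2 was far the highest. Stard4 was at 76.0, 75.7 and 73.2 CPM and at 64.8, 62.9, 74.5 and 54.0 CPM, at -0.22 ± 0.11, with replicate 4 in the control range.

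The size of the Atr effect was set side by side in a fit of all 4 groups, as estimates without a test, since it contains the comparison on which the genes were chosen. The Bax/Bak log2 fold change minus the p53 one was -0.99 ± 0.20 (SE) for Idi1, -0.58 ± 0.08 for Acat2, -0.50 ± 0.10 for Sqle and -0.45 ± 0.11 for Stard4. It was 0.93 ± 0.14 for Abca1, 0.77 ± 0.20 for Mylip and 0.51 ± 0.11 for Npc1. Nsdhl (-0.11 ± 0.10), Srebf2 (-0.11 ± 0.10) and Insig1 (0.02 ± 0.11) had differences of about 1 SE or less.

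The 2 control groups did not start from the same level. Summed synthesis was at 1513 ± 29.0 TPM (SD, n = 3) in p53 controls, against 1873 ± 48.6 TPM in Bax/Bak controls, and at 1409 ± 157 TPM (SD, n = 4) in Atr p53. Atr p53 replicate 2 was the lowest, at 1196 TPM. In CPM its sum was 1876, inside the p53 control range of 1781 to 1977 CPM. In the same fit p53 controls were below Bax/Bak controls by -0.63 ± 0.13 for Hsd17b7, -0.61 ± 0.15 for Idi1, -0.56 ± 0.20 for Sc5d, -0.52 ± 0.08 for Stard4 and -0.36 ± 0.09 for Hmgcs1 on the log2 scale. Among those the other way were Insig1, at 0.19 ± 0.08, Npc2, at 0.165 ± 0.065, and Scap, at 0.143 ± 0.055. The synthesis genes Fdps (0.107 ± 0.069), Pmvk (0.106 ± 0.083) and Mvk (0.10 ± 0.067) also had positive estimates. The backgrounds were deposited in separate tables, and table and background cannot be told apart. In the p53 background the dividing cell markers summed to 2042 to 2105 CPM in controls and 1497 to 2181 CPM in Atr p53, with 0 of 12 called. No marker of any other type was called, but some sums shifted. Granule progenitor markers summed to 2541 to 2724 CPM in controls and 1824 to 2485 CPM in Atr p53. Of these markers 6 of 10 had every library below all controls, against 4.62% of all genes. Oligodendrocyte lineage markers summed to 591 to 862 CPM and 494 to 577 CPM. An unadjusted p under 0.05 in edgeR was reached by 6 of 11, against 1142 of all 17348 genes. Their part in the sterol gene values was not tested.

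**Figure D4:**
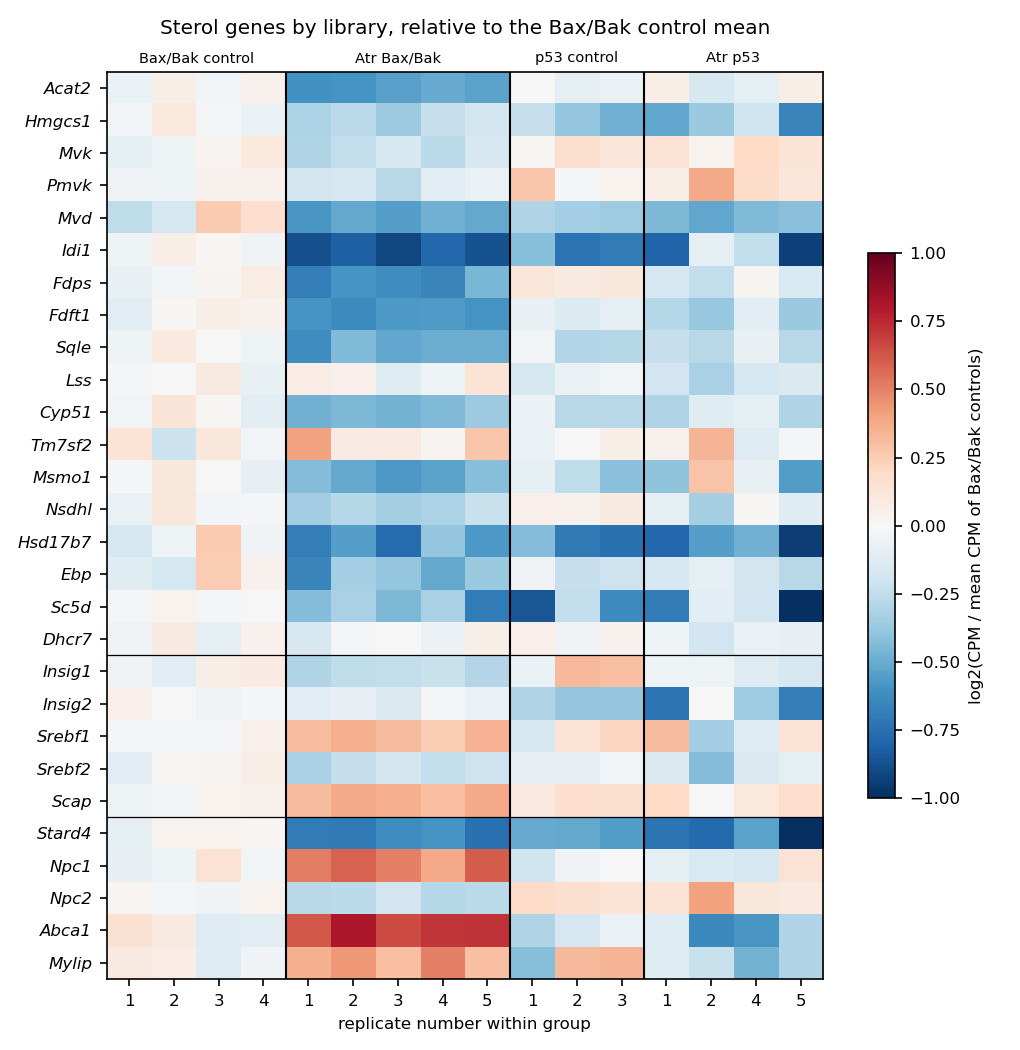
Log2 ratio of each sterol gene to its mean CPM in the Bax/Bak controls, by library (columns) and gene (rows, ordered by role with lines between roles). The 5 Atr Bax/Bak columns are alike, blue for most synthesis genes and Stard4 and red for Srebf1, Scap, Npc1, Abca1 and Mylip. The Atr p53 columns differ among themselves, with Idi1 and Msmo1 palest or red in replicates 2 and 4.

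Genes around the pathway were counted in 5 further lists. They were written from textbook knowledge but with earlier results of these data known, so their Bax/Bak counts are not independent of those results. In the Bax/Bak background, LXR targets, lipoproteins and sterol oxidation had 9 of 16 genes higher and 2 lower, with a median log2 fold change of 0.39. Abca3 (0.55 ± 0.06, edgeR adjusted p = 2.81e-05), the neuronal and glial exporter Abcg4 (0.49 ± 0.05, edgeR adjusted p = 4.19e-05) and the carrier Apoe (0.59 ± 0.08, edgeR adjusted p = 0.000133) had the smallest p-values. Lipoprotein receptors and sterol movement had 7 of 16 higher and 1 lower, with a median of 0.13. Its leading genes were the receptor Lrp1 (0.56 ± 0.06, edgeR adjusted p = 5.95e-05), Osbpl1a (0.39 ± 0.05, edgeR adjusted p = 0.000132) and the sterol carrier Gramd1b (0.44 ± 0.08, edgeR adjusted p = 0.000726). Over all genes tested 22% were called lower and 22.5% higher, or 44.5% in either direction. Markers of astrocytes and Bergmann glia, cells known to express Apoe strongly, were higher in the same libraries. The part of those cells was not tested.

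Fatty acid synthesis, the other SREBP-driven pathway, had 7 of 14 genes higher and 2 lower, with a median of 0.19. For this list and the next ones the shares over all genes were again 22.5% higher and 22% lower. The elongase Elovl6 was lower (-0.41 ± 0.04, edgeR adjusted p = 3.71e-05), and the malic enzyme Me1 (0.53 ± 0.08, edgeR adjusted p = 0.000457) and the desaturase Scd2 (0.39 ± 0.06, edgeR adjusted p = 0.000514) were higher. SREBP processing and sterol-dependent degradation had 6 of 12 lower and 2 higher, with a median of -0.12. Mbtps2, the site-2 protease that releases SREBP, was at -0.27 ± 0.05 (edgeR adjusted p = 0.00177), Rnf139 at -0.23 ± 0.05 (edgeR adjusted p = 0.00196) and Ufd1 at -0.17 ± 0.04 (edgeR adjusted p = 0.00246). The isoprenoid branches, which leave the pathway after farnesyl diphosphate or before it, had 3 of 14 lower and 1 higher, with a median of -0.01. Neither count was above the share over all genes. Ggps1, which makes geranylgeranyl diphosphate, was at -0.26 ± 0.04 (edgeR adjusted p = 0.000652) and Nus1, of dolichol synthesis, at -0.17 ± 0.05 (edgeR adjusted p = 0.00945). Rabggta, a prenyltransferase subunit, was at 0.30 ± 0.06 (edgeR adjusted p = 0.00226).

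In the p53 background none of the 72 genes of these lists passed. Among the genes with the smallest p of their list were Me1 (0.31 ± 0.10, edgeR adjusted p = 0.594), Lipa (-0.20 ± 0.09, edgeR adjusted p = 0.768), Lpcat3 (-0.26 ± 0.13, edgeR adjusted p = 0.786) and Rnf145 (-0.16 ± 0.09, edgeR adjusted p = 0.802). Me1 was above its controls in all libraries of both backgrounds.

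**Figure D5:**
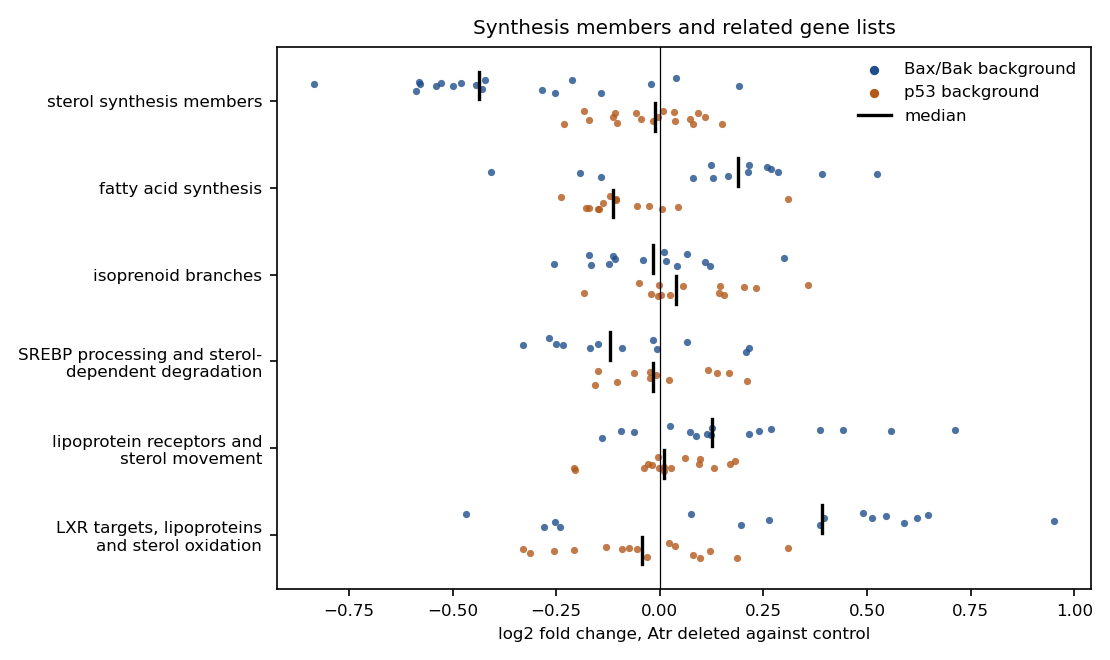
Log2 fold change with Atr deletion of the 18 synthesis genes and of the genes in 5 related lists, 1 point per gene, in the Bax/Bak (blue) and p53 (orange) backgrounds, with medians as black lines. In blue the medians run from -0.44 for synthesis to 0.39 for LXR targets, lipoproteins and sterol oxidation. In orange they lie between -0.11 and 0.04.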

How the data were processed

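For each background the authors deposited a table of estimated counts, with a row per Ensembl transcript and a column per sample and lane. The submitters' processing notes list kallisto 0.42.4 and edgeR, with mm9 and GRCm38 as builds but no roles, and the labels' protocols give stranded, poly-A selected libraries. Whether strand was used in counting is not given in the sources used here. Estimated counts of near-identical sequences depend on how reads were divided among them.

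The 2 lanes were added. Gene totals were formed with the GENCODE M21 annotation (GRCm38), which matched 92284 of 94080 transcripts. Unmatched ones held 0.779% to 1.04% of the counts of deep libraries. Totals of 31438 genes were rounded to whole numbers. The shallow library had identical lane columns and was left out. Each background was fitted with edgeR 4.0.16 (R 4.3.3): TMM, filterByExpr, robust quasi-likelihood fits and Benjamini-Hochberg adjustment over all genes tested, with a threshold of 0.05. Fits held genotype alone. At these depths the spread between samples, not counting error, limits the precision. TPM uses annotated transcript lengths. Shared sequence is the percentage of 31-base words that a gene has in common with another. The fits were tested on simulated data.

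The 28 genes and the lists were chosen with earlier results of these data known. Values per library are given for the 6 synthesis genes of largest and the 3 of smallest Bax/Bak change and for all other roles. Of each related list the up to 3 genes of smallest p past the threshold, or the gene of smallest p, are named. A gene that this rule selects is not reported here. Genes singled out otherwise were chosen after their values were seen. Alternatives included other scalings and filters, DESeq2 1.42.0, limma-voom (limma 3.58.1), a fit of all 4 groups, and each library left out. Figures were drawn with matplotlib 3.10.9 in Python 3.11.15.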

Additional observations from a re-analysis of the deposited data

Results flagged for a closer look

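Each of 84 groups (28 genes in the 3 groups of 4 or 5 libraries) was examined for a library far from the others, and 5 had one, where chance gives about 1 in 20. Both Atr p53 cases were replicate 2, the library with fewer counts from dividing cell markers: Srebf2 was at 189 CPM there against 230.3 to 238 CPM in the other libraries, and Npc2 at 141 CPM against 114.5 to 118 CPM. In the Bax/Bak controls, Stard4 was at 101 CPM in replicate 1 against 109 to 111 CPM, and Srebf1 at 115 CPM in replicate 4 against 109.6 to 110.3 CPM. In Atr Bax/Bak, Npc2 was at 94.0 CPM in replicate 3 against 88.0 to 89.3 CPM, still below all controls.

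Mylip had estimates of opposite sign in the backgrounds, of which the p53 one did not pass its test and turned to 0.16 against control replicate 1 alone. All 5 Atr Bax/Bak libraries were above the mean of their controls and all 4 Atr p53 libraries were below the mean of theirs. The log2 fold changes differed by 0.77, and this difference was not tested. Among the p53 controls, replicate 1 (8.57 CPM) was below 3 of the 4 Atr p53 libraries.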

How the results depend on the processing

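No paired analysis was possible because the labels give no replicate numbers shared between groups. A title number series is shared by p53 control replicate 1 and all Atr p53 samples, so a comparison within the series rests on that control alone. In title numbers, all Atr Bax/Bak samples form a series apart from their controls, so whatever that number stands for and the genotype cannot be told apart. In the Bax/Bak background the 18 synthesis genes had a median log2 fold change of -0.44, which was -0.37 against control replicates 1 and 2 alone and ran from -0.50 to -0.42 as each library was left out. For uptake, transport and export the median of 0.40 was 0.32 against those 2 controls and ran from 0.35 to 0.42. These are the values of Mylip, the middle gene of a list split in direction. Pmvk lost its call under upper-quartile scaling, in the fit of all 4 groups, against those 2 controls and without control replicate 3 or 4 or Atr Bax/Bak replicate 1 or 3. Sc5d lost it in the fit of all 4 groups and Mvk against those 2 controls. Mvd was -0.30 against those 2 controls and -0.77 against replicates 3 and 4, Ebp -0.29 against the former, and Mvk -0.33 and Pmvk -0.23 against the latter. No value changed sign where it had passed.

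In the p53 background none of the 28 genes passed under any alternative. Over all genes, 8 passed, against 14 without the filter on low counts, 128 with DESeq2, 4 with limma-voom, 70 in the fit of all 4 groups and 23 with the shallow library, and 2 to 13 as each library was left out (13 without p53 control replicate 1, 2 without control replicate 2, 4 without control replicate 3, 3 without Atr p53 replicate 1 and 2 without replicate 2). Another pair of alternatives was chosen after seeing the data, by the number series of the titles: 13 genes passed against p53 control replicates 2 and 3 and 5 against replicate 1, where the lone control is assumed to vary like the other group. Against replicate 1 the synthesis median was -0.14 and the uptake, transport and export median 0.002. Without Atr p53 replicate 2 these medians were -0.07 and -0.14.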
